A study of Mus musculus with 40 samples.

Results

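Synapses are held together and specified by cell surface proteins that meet across the cleft. Presynaptic neurexins and LAR-type receptor phosphatases are the hubs of this network, and neuroligins, leucine-rich repeat proteins, latrophilins and secreted cerebellins are among their ligands. The partners that a neuron expresses help to set whether a contact becomes excitatory or inhibitory, and MDGA proteins act as brakes by covering the neurexin-binding face of neuroligins. N6-methyladenosine (m6A), the commonest internal mark of mRNA, is written mostly near stop codons and in long exons, and long neuronal transcripts are known to carry it.

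The genes described here were 57 synaptic adhesion and organiser genes in 10 families, chosen by name, of 19358 genes in the tables of input reads. Midbrain RNA came from wild type (Wt) C57BL/6J mice and from A30P aSyn transgenic (aSyn Tg) littermates, which were male and homozygous for human alpha-synuclein with the A30P mutation under the Thy-1 promoter, at 3 mo or 15 mo of age. The strain symbol given in the study's methods also names the Th gene and another aSyn mutation, so the promoter rests on the methods' description. Each mouse gave an input library (fragmented, rRNA-depleted RNA) and a library of fragments pulled down with an m6A antibody. Input libraries were analysed for 4 Wt mice at 3 mo and for 5 mice in each of the other groups.

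The input libraries held 2161940 to 9185647 reads in genes, and the aSyn Tg 15 mo library with table number 5 was the shallowest. The table numbers of the aSyn Tg columns do not match the label numbers one to one, so these libraries were used by group, and every library is named here by its table number. Markers of neighbouring brain regions moved with the Wt 15 mo group. The sum of 9 thalamic and hypothalamic markers was 912 to 1348 CPM (reads per 1000000 reads in genes, TMM-scaled) at 3 mo and 1071 to 2039 CPM at 15 mo in Wt, with 9 of 9 markers above 0 on the log2 fold change scale and 0 past the limits. The sum of 6 serotonergic and cholinergic markers was 173 to 219 CPM at 3 mo and 18.2 to 91.2 CPM at 15 mo in Wt, and all 3 that were tested fell. Of the other marker lists, those of neurons, dopaminergic neurons, cerebellum, forebrain, and endothelium and pericytes held 0 genes past the limits in any of 4 comparisons by edgeR, with 0 to 6 genes of a list at an unadjusted p under 0.05. Their sums could still differ. In Wt the cerebellar sum was 341 to 384 CPM at 3 mo and 427 to 665 CPM at 15 mo. The endothelial and pericyte sum was 365 to 424 CPM and 301 to 362 CPM. Sums of neurons, dopaminergic neurons and forebrain overlapped between the ages in Wt. All 7 tested dopaminergic markers were nonetheless below 0 in Wt ageing, with a median log2 fold change of -0.30. Of these, 3 were at an unadjusted edgeR p under 0.05. Neuronal markers were 5 above and 4 below 0, and the tested forebrain markers 2 above and 1 below. In Wt ageing 2 oligodendrocyte precursor markers fell and 1 microglial and 1 astrocytic marker rose, in aSyn Tg ageing 4 microglial and 1 astrocytic marker rose and 2 oligodendrocyte markers and 1 serotonergic and cholinergic marker fell, and at 15 mo 1 astrocytic marker and 2 serotonergic and cholinergic markers were higher in aSyn Tg. The part of these shifts in the results below was not tested, and values are given beside the members they move with. In bulk tissue, fewer cells of a type and less RNA per cell cannot be told apart.

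m6A peaks over these transcripts differed in level between groups, and the sequences around the consensus motif in 8 of them are shown first because the results return to these peaks. Only differential peaks that hold the motif could give a window, so the 8 do not stand for all differential peaks. The windows are 21 bases of the transcribed strand, 5′ to 3′, with the motif GGACT in capitals, from GENCODE transcripts on GRCm38, taken at the GGACT nearest the centre of the differential peak.
Mdga1, 3′ UTR, chr17:29828248-29828268, minus strand: gaaagtagGGACTattcctgc
Clstn1, 3′ UTR, chr4:149647861-149647881, plus strand: cactgagcGGACTtgtcgaca
C1ql2, coding sequence, chr1:120341461-120341481, plus strand: ggctacccGGACTgcagttga
Tenm3, 3′ UTR side of the stop codon, chr8:48228386-48228406, minus strand: tccaaaccGGACTctccaaag
Cntn2, 3′ UTR, chr1:132514493-132514513, minus strand: aactgcctGGACTctcttggg
Cadm2, 5′ UTR, chr16:67620537-67620557, minus strand: gggctctgGGACTtgcctcga
Adgrl3, coding sequence, chr5:81512282-81512302, plus strand: tgatttgaGGACTaggataaa
Adgrl1, 3′ UTR side of the stop codon, chr8:83939218-83939238, plus strand: ccccttggGGACTatgacctg

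These letters are a description of the window and do not locate a modified base. The peak of Mdga1 held 1 GGACT, those of Clstn1, C1ql2 and Cadm2 held 2 each, that of Cntn2 held 3, those of Tenm3 and Adgrl3 held 4 each and that of Adgrl1 held 6. Of the differential member peaks placed on a transcript, GGACT was in 3 of 5 in Wt ageing and 4 of 10 in aSyn Tg ageing. For genotype it was in 3 of 6 at 3 mo and 1 of 2 at 15 mo. The shares for all genes were 54.7%, 41.6%, 41.9% and 39.1% in the same order. Within 100 bases on either side of the peak centre, over all 4 groups, GGACT was present in 32.2% of 602 member peaks and in 33.6% of 51860 peaks of all genes. Its reverse complement, AGTCC, was present in 11.6% to 14.3% of member peaks and 16.6% to 17.2% of all peaks by group.

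All 57 genes were read in the midbrain, over a wide range. Per kilobase of exon, the highest mean level belonged to Clstn1, a calsyntenin that links cargo to kinesin, at 161 CPM per kb. Cadm4, a SynCAM of myelinating glia and neurons, followed at 106 CPM per kb, Clstn3 at 75.9 CPM per kb and Lrrc4b, the netrin-G ligand family member that binds LAR, at 63.2 CPM per kb. The lowest were C1ql3, a secreted C1q-domain organiser, at 2.32 CPM per kb, Lrrtm4 at 3.55 CPM per kb and Il1rapl1 at 4.71 CPM per kb. By family, the median level was 75.9 CPM per kb for 3 calsyntenins, 31.0 for 6 contactins and Caspr proteins, 11.4 for 17 leucine-rich repeat organisers and 7.47 for 2 MDGA proteins. C1ql3, with a mean normalised count of 28.2, was below the limit of 50 for testing, so 56 members were tested in every comparison. It read 2.51 to 10.6 CPM over the 19 libraries and its groups overlapped.

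RNA of the members differed little between groups. A gene was called when edgeR's quasi-likelihood test gave it an adjusted p no higher than 0.05 together with a 1.2-fold or larger change. Only 2 calls were made among 56 members in 4 comparisons, and both were lower levels. Mdga1, the brake on neuroligin-2, fell between 3 mo and 15 mo in Wt, and Igsf11, an immunoglobulin protein that binds the scaffold PSD-95, was lower in aSyn Tg than in Wt at 3 mo.

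**Figure D1:**
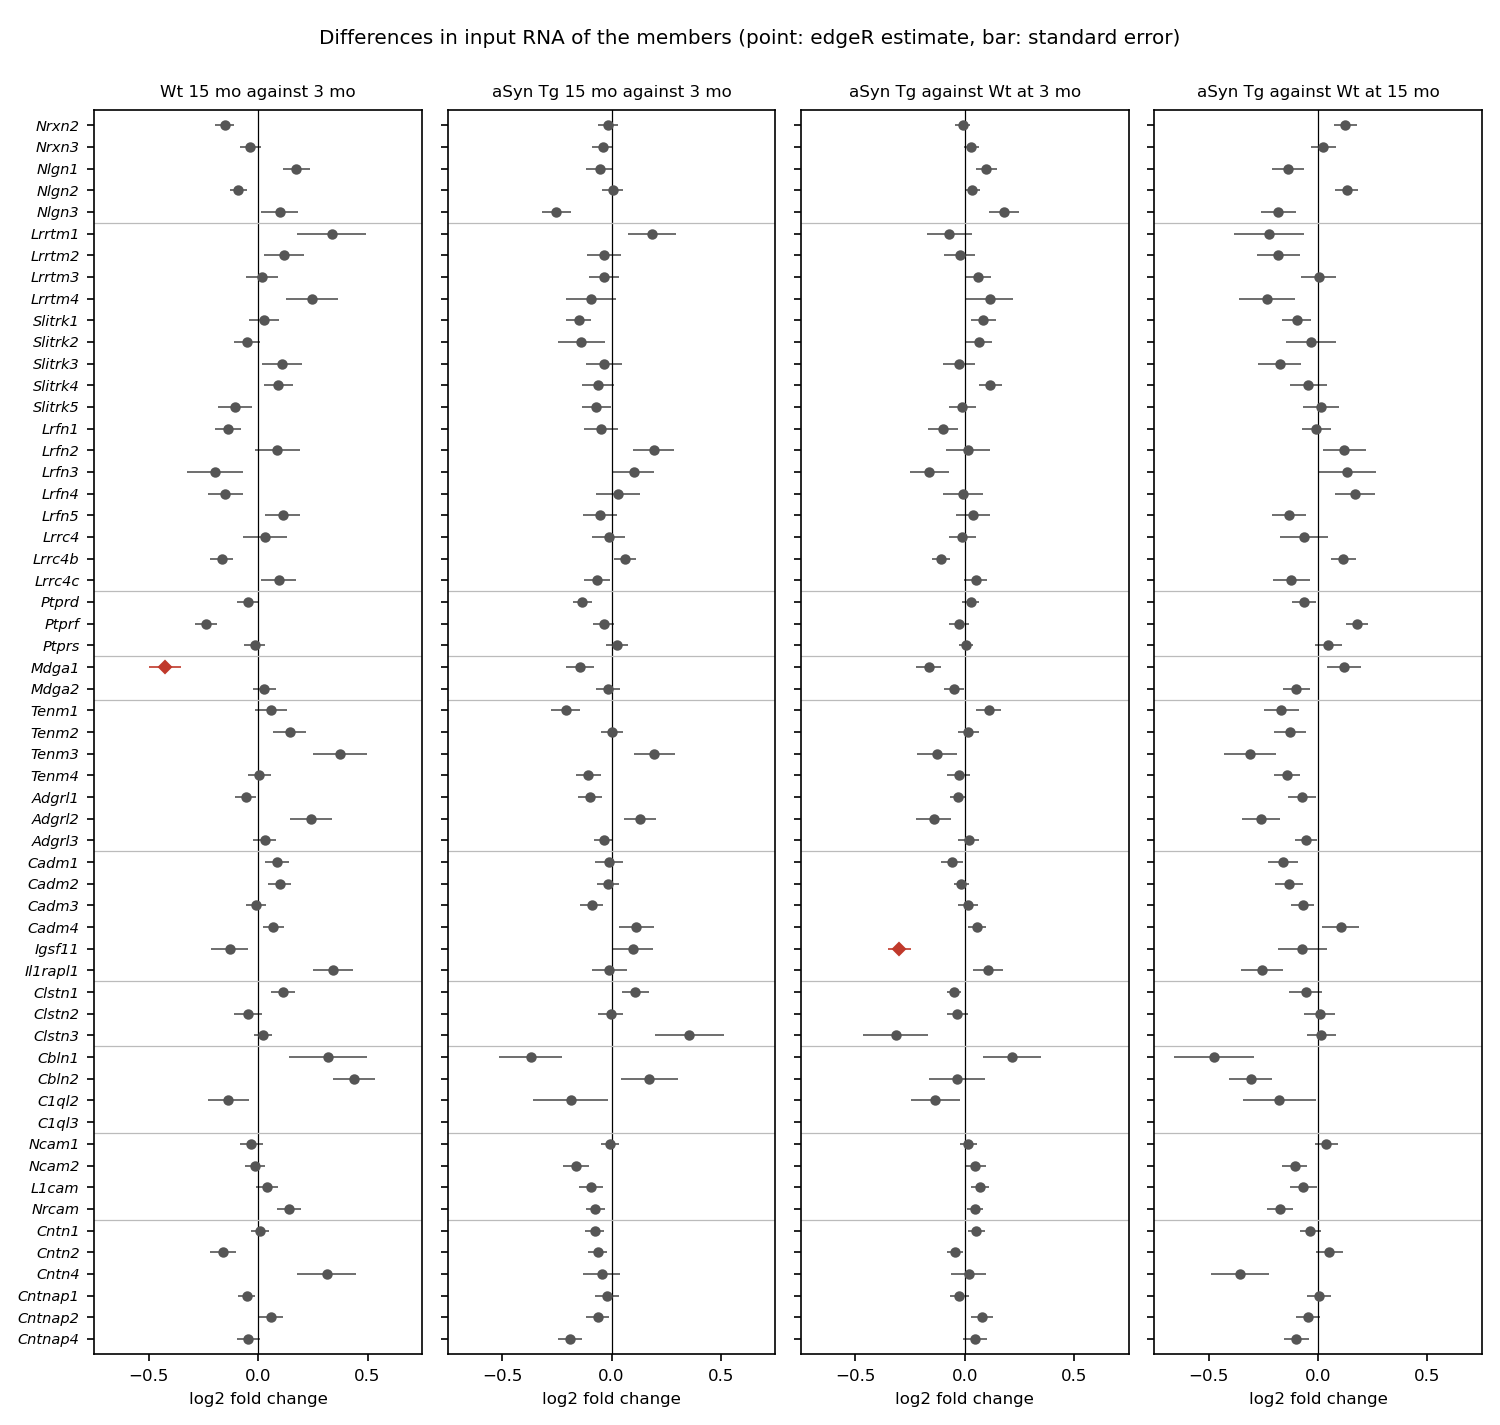
Log2 fold change of input RNA (horizontal axis) for each member (rows, with lines between families) in 4 comparisons; points are edgeR estimates, bars are standard errors and red diamonds are genes that passed the limits. The 2 diamonds are Mdga1 in Wt ageing and Igsf11 at 3 mo, and C1ql3 was not tested.

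The first question was what ageing does to these genes in Wt mice. Of 56 members tested, 1 was called, against 0.361% of 10798 genes (39 genes, 0.13% higher and 0.232% lower). At an unadjusted p under 0.05, 14 members differed, 7 higher and 7 lower, beside 15.6% of all genes. The median log2 fold change of the members was 0.03 and that of all genes 0.00, with 33 members above 0 and 23 below.

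Mdga1 read 84.1, 74.8, 83.4 and 79.2 CPM in the Wt 3 mo libraries 2, 3, 4 and 5, and 57.2, 55.0, 69.9, 56.9 and 60.3 CPM in the Wt 15 mo libraries 1 to 5. Every 15 mo library was below every 3 mo library. The log2 fold change was -0.43 ± 0.07 (SE, n = 4 and 5, edgeR adjusted p = 0.0308). The call was lost on leaving out any of 4 Wt 3 mo libraries or the Wt 15 mo libraries 1, 4 or 5, with adjusted p from 0.0511 to 0.148, and it held without the Wt 15 mo library 2 (0.0495) or 3 (0.00338). Mdga1 lies on the minus strand at chr17:29827949-29970087 (GRCm38).

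The other members with separate groups in Wt ageing were of several families. Groups did not overlap for 2 higher members, Nlgn1 and Il1rapl1, and for 4 lower members, Nrxn2, Nlgn2, Ptprf and Mdga1, beside 2.32% and 2.9% of all genes. Ptprf, which encodes LAR, read 194, 179.7, 194 and 187 CPM at 3 mo and 157, 148, 165, 159 and 169.6 CPM at 15 mo. Its log2 fold change was -0.24 ± 0.05 (edgeR adjusted p = 0.0560), which missed both limits. Nrxn2, a presynaptic hub, had a log2 fold change of -0.15 ± 0.04 and Nlgn2, the neuroligin of inhibitory synapses, one of -0.09 ± 0.04, with edgeR adjusted p of 0.120 and 0.273. Nlgn1, the neuroligin of excitatory synapses, was at 0.17 ± 0.06 (edgeR adjusted p = 0.186).

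The 3 largest positive values in Wt ageing belonged to Cbln2, Tenm3 and Il1rapl1, and none was called. Cbln2, a secreted bridge between neurexins and glutamate delta receptors, read 28.5, 34.2, 31.8 and 30.3 CPM at 3 mo and 47.2, 44.1, 34.1, 44.6 and 40.5 CPM at 15 mo (log2 fold change 0.44 ± 0.10, edgeR adjusted p = 0.0642). Library 3 was the lowest at 15 mo and the only one inside the 3 mo range. Tenm3, a teneurin that pairs with latrophilins, read 154, 218, 189 and 171 CPM at 3 mo and 250.1, 275, 173, 258 and 223 CPM at 15 mo (0.37 ± 0.12, edgeR adjusted p = 0.172). Il1rapl1, a ligand of the phosphatase Ptprd, read 37.2, 41.9, 39.9 and 41.4 CPM at 3 mo and 58.6, 54.5, 43.2, 51.9 and 45.1 CPM at 15 mo (0.34 ± 0.09, edgeR adjusted p = 0.104). Its groups did not overlap.

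Library 3 was the lowest of the Wt 15 mo libraries for all 3 genes and for Cntn4, a contactin of axons, which read 56.3, 73.4, 63.5 and 65.3 CPM at 3 mo and 92.3, 95.0, 54.3, 84.1 and 73.0 CPM at 15 mo. Without it, 5 members were called, Mdga1 lower and Cbln2, Tenm3, Il1rapl1 and Cntn4 higher, with 326 genes called in all. The same library had the lowest thalamic and hypothalamic sum of its group, 1071 CPM against 1244 to 2039 CPM in the other 4, and the highest serotonergic and cholinergic sum, 91.2 CPM against 18.2 to 46.9 CPM. The 4 higher members are grouped by the effect of leaving library 3 out, which favours genes that are low in it. The part of these marker levels in the 4 member values was not tested.

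**Figure D2:**
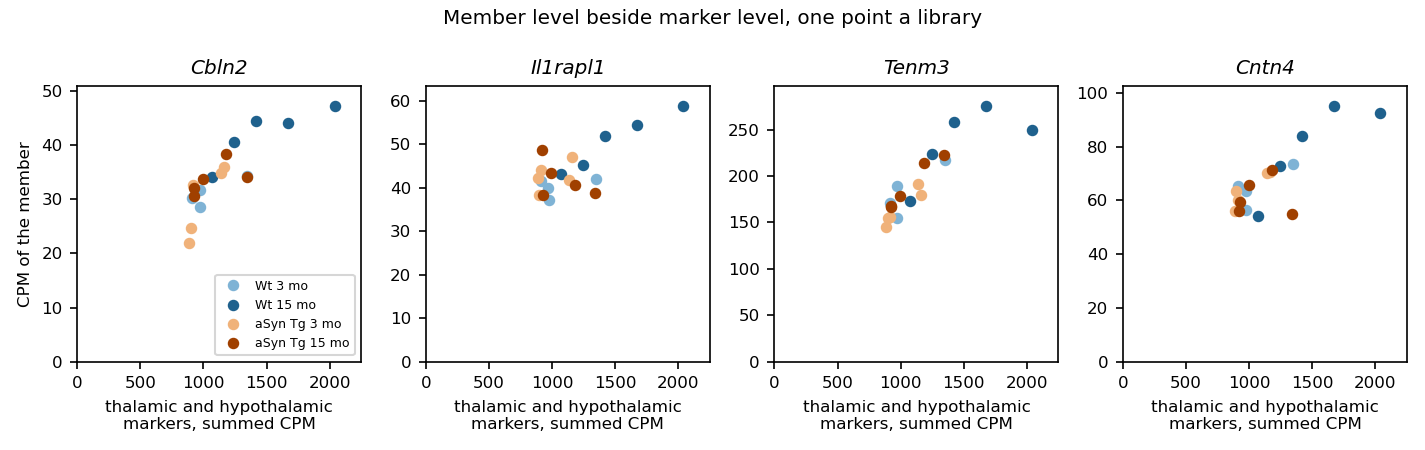
CPM of Cbln2, Il1rapl1, Tenm3 and Cntn4 (vertical axis) beside the summed CPM of 9 thalamic and hypothalamic markers (horizontal axis), 1 point for each of 19 libraries, coloured by group. The Wt 15 mo libraries spread from 1071 to 2039 CPM of markers, and their library at 1071 CPM has the lowest level of each of the 4 genes in that group. The 4 genes are those called higher when that library is left out, so its low level follows in part from their choice.

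On the lower side, Lrfn3, one of the SALM proteins of the postsynaptic membrane, had the third largest negative value in Wt ageing. It read 19.99, 21.9, 18.9 and 20.7 CPM at 3 mo and 20.2, 22.4, 15.4, 14.5 and 15.9 CPM at 15 mo, and the groups overlapped (log2 fold change -0.20 ± 0.13, edgeR adjusted p = 0.493). Among 17 leucine-rich repeat organisers, 11 were above 0 and 6 below, from -0.20 to 0.34. Of 7 teneurins and latrophilins 6 were above 0, the exception being Adgrl1 at -0.06 ± 0.05, and all 3 LAR receptor phosphatases were below 0, with Ptprf at the far end.

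The second question was ageing in aSyn Tg mice, in which 0 of 56 members were called by edgeR, against 0.918% of 11007 genes (0.799% higher and 0.118% lower). At an unadjusted p under 0.05, 9 members differed, 1 higher and 8 lower, beside 11.2% of all genes. DESeq2 and limma also called 0 members, and edgeR with 1 estimated factor of unwanted variation called Nlgn3. The median log2 fold change of the members was -0.04 and that of all genes 0.00, with 15 members above 0 and 41 below. Groups did not overlap for 0 higher members and for 3 lower members, Nlgn3, Ptprd and Cntnap4, beside 1.77% and 1.71% of all genes.

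Nlgn3, a neuroligin of excitatory and inhibitory synapses, read 71.4, 71.6, 74.9, 66.6 and 66.9 CPM in the aSyn Tg 3 mo libraries 1, 3, 4, 5 and 6, and 60.6, 59.0, 59.0, 47.7 and 63.2 CPM in the 15 mo libraries 2 to 6. All 15 mo libraries were below all 3 mo libraries, and the shallow library 5 was the lowest. The log2 fold change was -0.25 ± 0.07 (n = 5 and 5, edgeR adjusted p = 0.111). With the factor of unwanted variation it was -0.28 ± 0.06 (edgeR adjusted p = 0.0194).

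Cbln1, the cerebellin that bridges neurexins and the delta receptor in the cerebellum, read 47.9, 32.3, 39.0, 33.9 and 52.0 CPM at 3 mo and 28.5, 33.7, 27.02, 42.2 and 30.4 CPM at 15 mo. The groups overlapped, and the log2 fold change of -0.37 ± 0.14 was the largest negative value (edgeR adjusted p = 0.344). Tenm1, a teneurin, read 194, 169.7, 199, 189.9 and 183 CPM at 3 mo and 169.8, 154, 177, 135 and 163 CPM at 15 mo (-0.21 ± 0.07, edgeR adjusted p = 0.206). Ptprd, a presynaptic LAR-type phosphatase, was at -0.13 ± 0.04 (0.211) and Cntnap4, a Caspr protein of interneurons, at -0.19 ± 0.055 (edgeR adjusted p = 0.163).

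The largest positive values in aSyn Tg ageing were those of Clstn3, Tenm3 and Lrfn2. Clstn3, a calsyntenin of the postsynaptic membrane, read 419, 249, 419, 235 and 256 CPM at 3 mo and 391.9, 371, 384, 480.5 and 389.9 CPM at 15 mo (0.36 ± 0.16, edgeR adjusted p = 0.415). Libraries 3, 5 and 6 of the aSyn Tg 3 mo group stood apart, and the other 2 were near the Wt level of 376 to 418 CPM. Tenm3 read 179, 145, 155, 192 and 155 CPM at 3 mo and 215, 167, 168, 223 and 178 CPM at 15 mo (0.20 ± 0.09, edgeR adjusted p = 0.470). Lrfn2, a SALM protein, read 17.6, 19.8, 20.2, 17.99 and 15.0 CPM at 3 mo and 20.8, 19.8, 20.4, 22.6 and 20.2 CPM at 15 mo (0.19 ± 0.09, edgeR adjusted p = 0.471). All 6 contactins and Caspr proteins and all 4 NCAM and L1 genes were below 0, from -0.19 to -0.01, and none passed the limits.

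The third question was the genotype at 3 mo, where 1 of 56 members was called, against 0.835% of 11376 genes (95 genes, 0.624% higher and 0.211% lower). Igsf11 read 56.6, 52.6, 52.6 and 55.8 CPM in the Wt libraries and 43.7, 44.4, 44.6, 42.2 and 46.7 CPM in the aSyn Tg libraries. No library of one genotype reached the range of the other. The log2 fold change was -0.30 ± 0.05 (SE, n = 5 and 4, edgeR adjusted p = 0.0134). It lost the call in edgeR without the Wt 3 mo library 2 (adjusted p = 0.0757) and in the edgeR fit of all 4 groups (0.349). At 15 mo Igsf11 read 43.2 to 57.7 CPM in Wt and 34.2 to 54.1 CPM in aSyn Tg, and the groups overlapped.

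At 3 mo the median log2 fold change over the members was 0.01 and over all genes of -0.00. Groups did not overlap for 0 higher members and for 2 lower members, Igsf11 and Clstn1, beside 1.86% and 2.32% of all genes. Clstn1, at -0.05 ± 0.03, was within 1.2-fold.

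The largest positive values at 3 mo were those of Cbln1, Nlgn3 and Slitrk4, a ligand of LAR-type phosphatases, and none was called. Cbln1 read 33.3, 42.2, 36.7 and 30.3 CPM in the Wt libraries and 32.3 to 52.0 CPM in the aSyn Tg libraries given above (0.22 ± 0.13, edgeR adjusted p = 0.576). Nlgn3 read 54.6, 58.9, 68.3 and 68.5 CPM in Wt against 66.6 to 74.9 CPM in aSyn Tg (0.18 ± 0.07, edgeR adjusted p = 0.300). Slitrk4 read 49.0, 53.4, 54.0 and 54.2 CPM in Wt and 55.2, 58.3, 56.8, 53.5 and 59.5 CPM in aSyn Tg (0.12 ± 0.05, edgeR adjusted p = 0.409). The groups overlapped for all 3 genes, and single libraries weighed on each. The value of Cbln1 was 0.12 without the aSyn Tg 3 mo library 6, and without the Wt 3 mo library 2 those of Nlgn3 and Slitrk4 were 0.10 and 0.08.

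Clstn3 and Mdga1 had the other large negative values at 3 mo. Clstn3 read 377, 401.9, 392.4 and 403 CPM in Wt, inside the 235 to 419 CPM of aSyn Tg (-0.32 ± 0.15, edgeR adjusted p = 0.422). Mdga1 read 65.8, 70.2, 74.9, 71.4 and 78.6 CPM in aSyn Tg, against 74.8 to 84.1 CPM in Wt (-0.17 ± 0.06, edgeR adjusted p = 0.243).

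The fourth question was the genotype at 15 mo. edgeR, DESeq2 and limma called 0 of 56 members, and edgeR called 0.22% of 10473 genes (23 genes, 0.191% higher and 0.0286% lower). At an unadjusted p under 0.05, 13 members differed, 3 higher and 10 lower in aSyn Tg, beside 11.2% of all genes. The median log2 fold change was -0.07 for the members and 0.01 for all genes, and 38 of 56 members were below 0. Groups did not overlap for 1 higher member, Nlgn2 (0.13 ± 0.05, edgeR adjusted p = 0.362), and for 0 lower members, beside 1.48% and 1.28% of all genes.

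The largest negative values at 15 mo were those of Cbln1, Cntn4 and Tenm3. Cbln1 read 69.4, 39.0, 38.0, 43.2 and 33.2 CPM in Wt and 28.5, 33.7, 27.02, 42.2 and 30.4 CPM in aSyn Tg (-0.48 ± 0.18, edgeR adjusted p = 0.350). Wt library 1, the one with the highest thalamic and hypothalamic sum (2039 CPM), was far above the rest, and without it the value was -0.26. The cerebellar sum of that library was 501 CPM, within the 427 to 665 CPM of its group. The part of either sum in the value was not tested. Cntn4 read 71.3, 59.4, 56.1, 54.8 and 65.8 CPM in aSyn Tg against 54.3 to 95.0 CPM in Wt (-0.36 ± 0.13, edgeR adjusted p = 0.342), and Tenm3 was at -0.31 ± 0.12 (0.350).

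All 7 teneurins and latrophilins and all 3 tested C1q-domain organisers were below 0 at 15 mo, none past the limits. The thalamic and hypothalamic sum was 923 to 1342 CPM in aSyn Tg and 1071 to 2039 CPM in Wt at this age, and its part in these values was not tested. This comparison and Wt ageing share the Wt 15 mo libraries, so their values are not independent. Il1rapl1 was at 0.34 ± 0.09 in Wt ageing and -0.26 ± 0.10 here, and Ptprf at -0.24 ± 0.05 and 0.18 ± 0.05.

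Ptprf had the largest positive value at 15 mo (edgeR adjusted p = 0.240), with 166, 185, 179.6, 192 and 180.0 CPM in aSyn Tg. Lrfn4, a SALM protein, read 27.7, 25.6, 25.6, 26.4 and 25.3 CPM in Wt and 28.7, 24.6, 33.0, 32.2 and 28.5 CPM in aSyn Tg (0.17 ± 0.09, edgeR adjusted p = 0.515). Lrfn3 read 18.7, 19.6, 16.8, 21.6 and 20.6 CPM in aSyn Tg, inside the 14.5 to 22.4 CPM of Wt (0.13 ± 0.13, edgeR adjusted p = 0.730), and its value ran from 0.08 to 0.23 on leaving out 1 library.

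**Figure D3:**
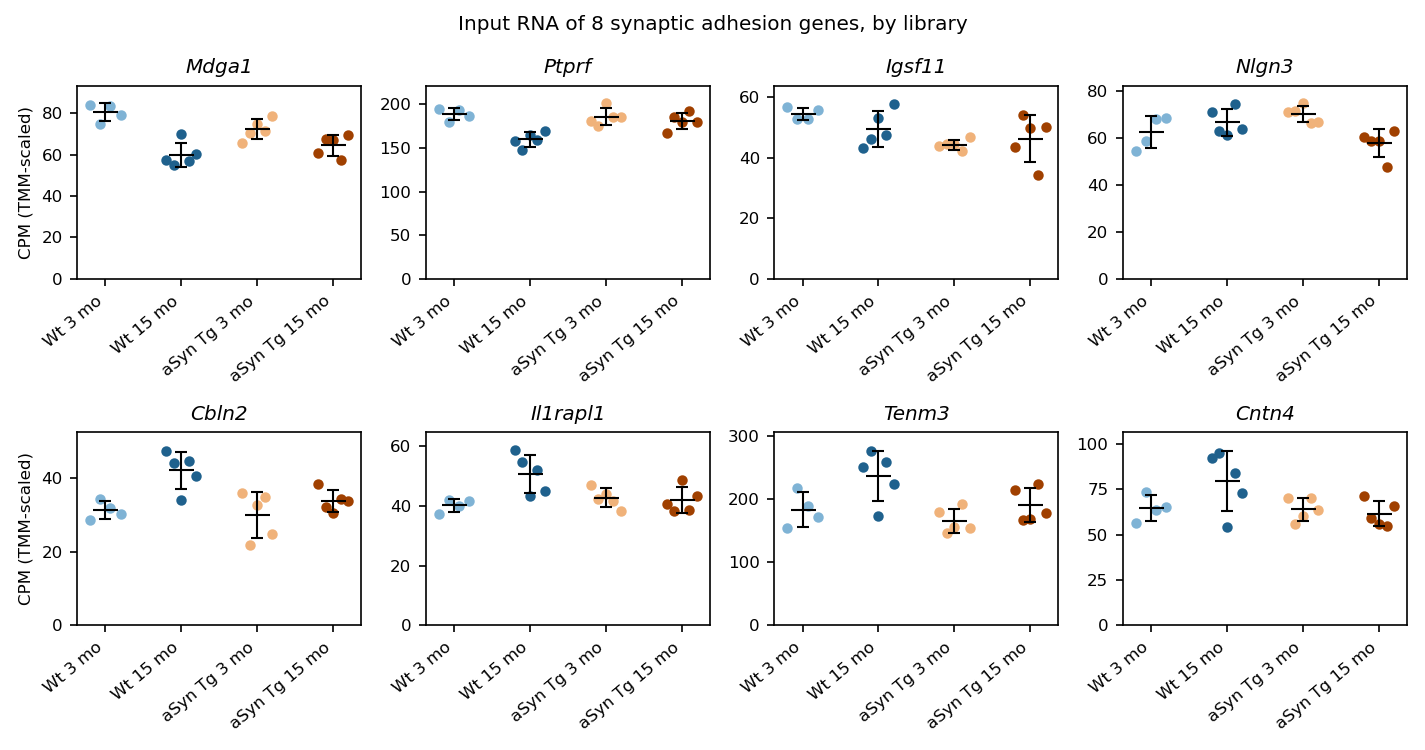
CPM (vertical axis, from 0) of 8 members in the 4 groups; each point is a library and black marks are the mean and SD. Mdga1 at 3 and 15 mo in Wt, and Igsf11 in Wt and aSyn Tg at 3 mo, are the separate groups that passed the limits.

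The interaction of genotype and age asked whether ageing differed between genotypes. No member passed an adjusted p of 0.05 (0 of 56, beside 0.00917% of 10907 genes, or 1 gene, by edgeR), and the smallest adjusted p of a member was 0.285, for Nlgn3 and Nrcam. At an unadjusted p under 0.05 there were 11 members, 4 above 0 and 7 below, beside 10.5% of all genes. DESeq2 and limma voom called 0 members as well. Cbln1 had the largest value, -0.70 ± 0.25 (edgeR adjusted p = 0.345), followed on the negative side by Cntn4 at -0.36 ± 0.17 and Il1rapl1 at -0.36 ± 0.12, and Mdga1 was at 0.28 ± 0.10 (0.336).

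Other genes of the pathway had no calls. Of 69 partner genes, 27 intracellular scaffolds and 42 other adhesion and organiser genes, 65 or 66 were tested and 0 were called by edgeR in any of the 4 comparisons or the interaction. At an unadjusted p under 0.05 in edgeR, 8 of 65 partners differed in Wt ageing, 12 of 65 in aSyn Tg ageing, 9 of 66 for genotype at 3 mo, 18 of 65 for genotype at 15 mo and 7 of 66 for the interaction, beside 15.6%, 11.2%, 12%, 11.2% and 10.5% of all genes. Scaffolds had a median log2 fold change of -0.06 in aSyn Tg ageing, with 6 of 27 above 0, and of -0.07 for genotype at 15 mo, with 5 of 26 above 0.

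m6A peaks lay on nearly all members. The authors' consensus lists give 1 set of peaks per group, with a fold enrichment of immunoprecipitate over input that pools the libraries of the group and so carries no error or n. The fourth list bears no group name and was taken as aSyn Tg 15 mo by elimination. At least 1 peak was listed for 50 members in Wt 3 mo, 52 in Wt 15 mo, 52 in aSyn Tg 3 mo and 50 in aSyn Tg 15 mo, and for 48 in all 4 groups. Over all genes at or above the count limit of 50, the shares were 54.1%, 54.5%, 52.2%, 52.6% and 47.2%, and among those in the middle range of member counts (263 to 1140) they were 62.9%, 63.8%, 61.7%, 61.9% and 56.9%. By share, 94.7% of members had a peak in at least 1 group, against 59.5% of 10907 genes with a mean count of at least 50. In that middle range, the shares were 93.1% of 29 members and 68.2% of 3864 genes. Transcripts of the members had a median length of 5178 nt, against 3362 nt for all genes of that count minimum and 4101 nt in the middle range, and the part of length in the share was not tested.

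The members without a peak were few. Ptprs, Ncam2 and Cntn4 had none in any group, although Ptprs was read at 468 CPM. Cadm4, C1ql3 and Clstn2 had a peak in 1 group each, Ptprf in all but Wt 3 mo, Igsf11 in all but aSyn Tg 15 mo and Cntnap4 in all but aSyn Tg 3 mo. All 17 leucine-rich repeat organisers, all 7 teneurins and latrophilins and all 5 neurexins and neuroligins had a peak in every group.

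Members with a peak held 2.88 to 3.24 peaks each by group, against 1.83 to 1.91 for all genes with a peak and 2.05 to 2.2 for those in the middle range of counts. The highest number was 9, in Tenm4 in Wt 3 mo. The median fold enrichment of member peaks was 4.58, 4.70, 4.65 and 5.44 in Wt 3 mo, Wt 15 mo, aSyn Tg 3 mo and aSyn Tg 15 mo, that of all peaks was 4.70, 4.94, 4.74 and 5.22, and that of peaks in the middle range of counts was 4.12, 4.31, 4.25 and 4.58. The members were thus above the middle range in each group and below all genes in 3 of 4. By family it was 6.08 for the MDGA proteins and 5.86 for the leucine-rich repeat organisers, and 3.03 for the SynCAMs and other immunoglobulin proteins and 3.19 for the calsyntenins.

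Of 188 member peak regions, joined where peaks overlapped by at least 1 base, 115 were listed in all 4 groups and 34 in 1 group. The count in 1 group depends on this rule. With a reciprocal overlap of 50%, there were 243 regions, 105 in all 4 groups and 93 in 1 group. These counts are given without those of all genes. Each peak was placed by its centre on a transcript that holds both its ends. Transcripts whose spliced width matched the peak were preferred, and those with the longest coding sequence were tried first. Of 594 member peaks on coding transcripts, 43.8% lay in coding sequence and 20.5% within 200 nt of the stop codon. A further 21.2% lay further into the 3′ UTR and 14.5% in the 5′ UTR. The shares for all genes were 45.3%, 25.6%, 22.0% and 7.17%.

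The strongest peak lay in Tenm4, a teneurin, at the end of the coding sequence. At chr7:96906085-96906775 (plus strand) its fold enrichment was 20.6 in Wt 3 mo, 22.8 in Wt 15 mo, 20.1 in aSyn Tg 3 mo and 25.8 in aSyn Tg 15 mo, with the first base 30 nt further in at Wt 3 mo and aSyn Tg 15 mo. Lrrc4b followed, with 13.6, 23.0, 16.9 and 23.7 in the same order over most of its coding exon, at chr7:44461230-44463351 in Wt 15 mo. Nlgn3 reached 22.0 in aSyn Tg 15 mo in its 3′ UTR (chrX:101319982-101321208), against 13.7 to 14.6 for its highest peak in the other groups. Lrrtm4 reached 19.9 in Wt 15 mo, in a short peak of its 3′ UTR (chr6:80809393-80809483) that was listed in this group only, and the highest peaks of the other groups, 6.35 to 7.87, were other peaks of the gene. Lrfn1 reached 19.4 in aSyn Tg 15 mo at its stop codon (chr7:28466986-28468033). The peak of Mdga1 in its 5′ UTR (chr17:29888147-29888506) differed the other way, with 16.3 in Wt 3 mo, 9.72 in Wt 15 mo, 4.76 in aSyn Tg 3 mo and 5.17 in aSyn Tg 15 mo. In the last 3 groups the highest peak of Mdga1 lay in the 3′ UTR instead, at 10.3, 7.78 and 6.90. The authors' differential lists hold no entry for the 5′ UTR peak of Mdga1 in any comparison. Its difference therefore rests on the pooled consensus values alone.

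**Figure D4:**
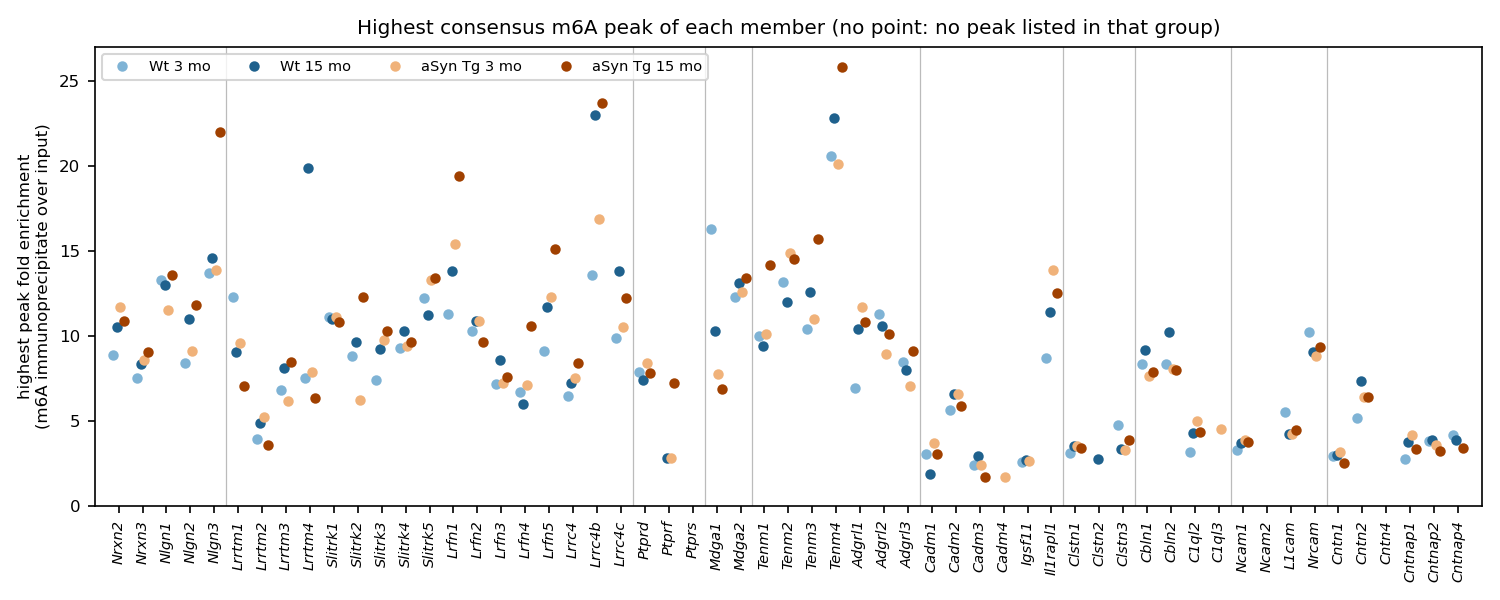
Fold enrichment (vertical axis) of the highest consensus m6A peak of each member (horizontal axis, with lines between families), 1 point for each group's pooled list and no point where none was listed. Tenm4, Lrrc4b and Nlgn3 reach above 20, and the 4 Cadm genes, the calsyntenins and the contactins and Caspr proteins stay below 8.

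Differential peaks were those that the authors' lists give with an FDR no higher than 0.05 and a 1.2-fold or larger change, where a positive log2 fold change means more m6A in the group named first. Member shares below cover members of all input counts, so the share of genes in the middle range is not a matched one. Clstn1 (mean count 3611) and Nrxn2 (2087), for example, lie above that range. Members with a peak also held more peaks each than either set of genes. The part of count and of peak number in the shares was not tested. In the 4 comparisons matched for age or genotype, 15 members had such a peak, 8 only gained, 4 only lost and 3 gained in one comparison and lost in another. This joint count is given without a share of all genes. Over all genes, 301 gained and 1 lost in Wt ageing, and 117 gained and 215 lost in aSyn Tg ageing. For genotype the numbers were 242 and 4 at 3 mo and 73 and 216 at 15 mo. No member with a differential peak had an adjusted p of at most 0.05 for its RNA in the same comparison, and the largest RNA value beside one was 0.20 on the log2 scale, in Tenm3. RNA calls were limited to Mdga1 in Wt ageing and Igsf11 at 3 mo. An overlap could therefore hardly arise, and its absence does not show that m6A and RNA levels are unrelated.

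In Wt ageing, 6 members gained a peak and 0 lost one. This was 11.5% of 52 members with a consensus peak, against 3.8% of 7954 genes and 6.03% of those in the middle range of counts. Over all genes 301 gained (3.78%) and 1 lost (0.0126%). The peak of Clstn2 (chr9:97799402-98033181, in 2 blocks centred in the 5′ UTR) had the largest value, 0.57, and was listed among the consensus peaks of Wt 15 mo only (fold enrichment 2.76). Nrxn2 gained 0.45 in coding sequence (chr19:6493432-6504948, fold enrichment 2.14 at 3 mo and 2.98 at 15 mo), and Cntn2 gained 0.39 in its 3′ UTR (chr1:132513802-132516040, 5.15 and 7.32), around the window printed above. Lrrc4b gained 0.34 in an interval of 5 blocks that spans the whole gene (chr7:44429018-44463351) and was not placed on a transcript. Its highest consensus peak, in the coding exon, was at 13.6 and 23.0. Adgrl1 gained 0.32 (chr8:83937771-83940518, 6.96 and 10.4) and Cadm2 0.32 (chr16:67620188-67620908, 5.61 and 6.59). The RNA of Nrxn2, Cntn2 and Lrrc4b had log2 fold changes of -0.15, -0.16 and -0.17, and that of Adgrl1 and Clstn2 of -0.06 and -0.05, opposite in sign to the m6A value, while Cadm2 was at 0.10, and none of the 6 passed the limits.

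In aSyn Tg ageing, 9 members had a differential peak, 2 gained and 7 lost. This was 17.0% of 53 members, against 4.25% of 7700 genes and 6.51% in the middle range, and 1.52% of all genes gained and 2.79% lost (2.26% and 4.33% in the middle range). Mdga1 lost the most, -1.2 in its 3′ UTR (chr17:29827986-29828315, FDR 0.0363), with a fold enrichment of 4.48 at 3 mo and no consensus peak at 15 mo. Nlgn2 lost 2 peaks, -0.76 in the 5′ UTR (chr11:69834537-69834807) and -0.58 in the 3′ UTR (chr11:69823901-69824441). Tenm4 and Tenm2 lost peaks in coding sequence far upstream of the stop codon, -0.75 (chr7:96644140-96704072) and -0.72 (chr11:36300285-36385182), both listed at 3 mo only.

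The other changes in aSyn Tg ageing were smaller. Nrxn2 changed by -0.51 (chr19:6493402-6504918), Clstn1 changed by -0.50 (chr4:149646834-149648122) and Cntnap1, the Caspr protein of the paranodal junction, by -0.41 (chr11:101189405-101190304). Tenm3 gained 0.41 at its stop codon (chr8:48227772-48229059, fold enrichment 11.0 and 15.7) and Adgrl3, a latrophilin, gained 0.38 in coding sequence (chr5:81511998-81560885, 6.99 and 9.10).

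For genotype at 3 mo, 6 members gained a peak and 0 lost one, 11.3% of 53 members against 3.16% of 7793 genes and 4.51% in the middle range. Over all genes 242 gained (3.11%) and 4 lost (0.0513%), and in the middle range 4.47% gained and 0.0395% lost. Tenm4 gained 0.49 (chr7:96644140-96704102), C1ql2, a secreted C1q-domain protein, 0.47 (chr1:120340582-120341686, log10 FDR listed as -1.30, at the limit) and Cadm2 0.39. Nrxn2 gained 2 peaks, 0.47 in the region that gained in Wt ageing and 0.27 nearer the stop codon (chr19:6519271-6532470). Cntnap1 gained 0.38 (chr11:101189405-101190334), and Lrrc4b gained 0.30 over the same unplaced interval as in Wt ageing.

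For genotype at 15 mo, 0 members gained and 2 lost a peak, 3.85% of 52 members against 3.65% of 7835 genes and 5.63% in the middle range, a share near that of all genes, of which 0.932% gained and 2.76% lost (1.42% and 4.21% in the middle range). Clstn1 changed by -0.63 at its stop codon (chr4:149646834-149648182), while its consensus fold enrichment was 3.42 in aSyn Tg and 3.19 in Wt, so the 2 kinds of list disagree in direction for this peak. Over all genes, of differential peaks with 1 consensus peak in each group, 94.3% of 106 at 15 mo and 96.5% to 99.3% in the other 3 comparisons had the direction of the consensus fold enrichments. Nrxn2 changed by -0.50 (2.43 in aSyn Tg and 2.98 in Wt).

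The coding peak of Nrxn2 on chr19 was the only one past the limits in all 4 comparisons. Its consensus fold enrichment was 2.14 in Wt 3 mo, 2.98 in Wt 15 mo, 3.16 in aSyn Tg 3 mo and 2.43 in aSyn Tg 15 mo (chr19:6498306-6504918 over the 4 lists). Nrxn2 RNA read 378 to 482 CPM over all 19 libraries. In Wt it read 440 to 464 CPM at 3 mo and 378 to 437 CPM at 15 mo, so RNA was lower where the peak gained. The differential region also spans a separate consensus peak that was listed in aSyn Tg 3 mo only (chr19:6497677-6497826, fold enrichment 4.20). The 4 comparisons share these groups in pairs, so the 4 values are not independent.

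**Figure D5:**
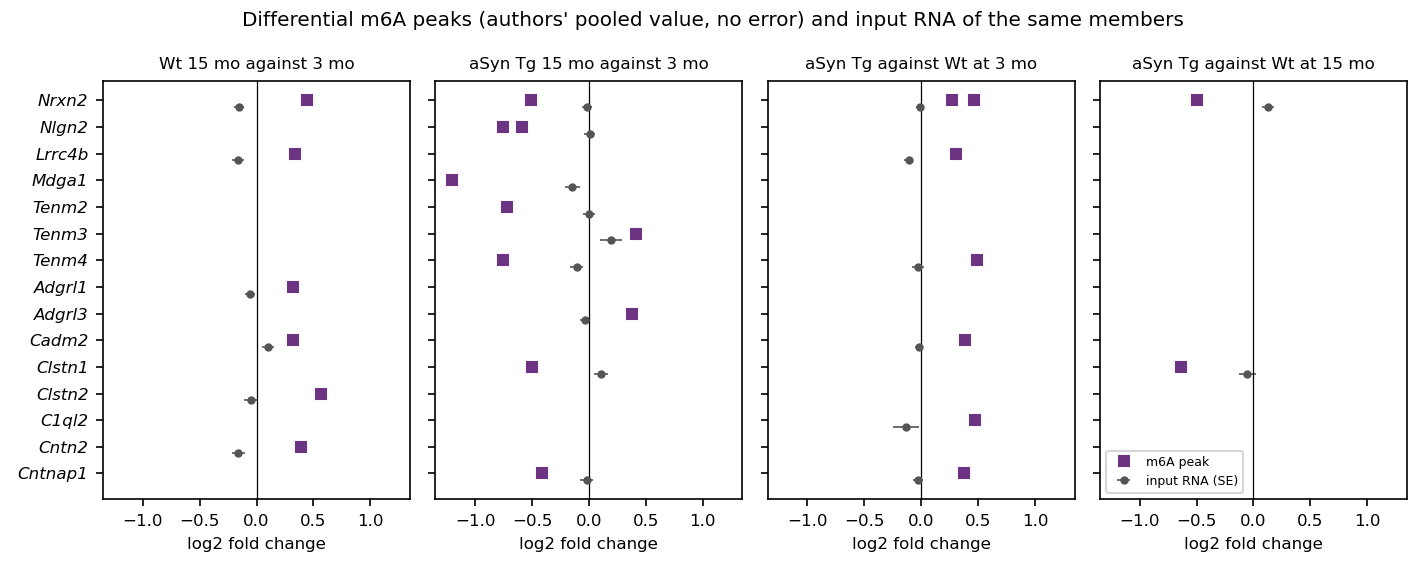
Log2 fold change (horizontal axis) of differential m6A peaks (squares, the authors' pooled values, no error) and of input RNA (circles with SE) for 15 members in 4 comparisons. Squares lie right of 0 in Wt ageing and at 3 mo, and 8 of 10 lie left of 0 in aSyn Tg ageing.

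In the 2 comparisons that differ in both age and genotype, 9 members had a differential peak for aSyn Tg 15 mo vs. Wt 3 mo (7 gained, 2 lost; 17.6% of 51 members against 6.97% of 7847 genes, 6.14% gained and 0.943% lost, and 11% in the middle range) and 3 for Wt 15 mo vs. aSyn Tg 3 mo (2 gained, 1 lost; 5.56% of 54 members against 1.06% of 7805 genes, 0.628% gained and 0.436% lost, and 1.3% in the middle range). Among those 9, Nlgn3 gained 0.29 in its 3′ UTR (chrX:101319594-101322405) and Lrfn1 gained 0.35 at its stop codon (chr7:28466657-28468242), and neither was past the limits in a matched comparison.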

How the data were processed

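Per the methods, the authors discarded reads of low quality (Cutadapt), alignment to mm10 used STAR, and input reads were assigned to genes by featureCounts, then modelled in DESeq2 with RUVseq. The labels' processing notes instead give DESeq and mm9. The deposited signal values are read counts divided by a size factor of the library. Whole reads were recovered for 392401 values, of which 100% lay within 0.01 of a whole number, over 19358 features found in both tables used, and 1447 of 20805 features were left out. The edgeR test was planned on such recovered reads. The deposited tables also hold the authors' own fold changes and p-values for RNA, which were not used.

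The authors called m6A peaks with MeTPeak and list a fold enrichment of immunoprecipitate over input, a ratio for each pooled group. The authors' differential peaks, from exomePeak, carry a log2 fold change and a score that is the log10 of the FDR. The limit on it was read with a tolerance of 0.005, since the lists are rounded. Both are given as the authors' pooled values, with no n.

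RNA was tested on 19 input libraries of 20 labelled (1 Wt 3 mo library was not analysed here) in R 4.3.3 with edgeR 4.0.16 (quasi-likelihood test, TMM scaling, 2 groups a fit, 4 groups for the interaction, Benjamini-Hochberg over all genes tested), on genes with a mean normalised count of 50 or more. P-values measure the spread between these mice. Totals of 2161940 to 9185647 reads limit the precision for low genes. The scripts were tested on simulated data. A check of the targeted gene is not reported here. Alternatives were DESeq2 1.42.0, limma 3.58.1, other scalings, filters and factors, and leaving out each library.

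The members, partner genes and 11 marker lists (neurons, dopaminergic neurons, serotonergic and cholinergic neurons, thalamus and hypothalamus, cerebellum, forebrain, oligodendrocytes, their precursors, astrocytes, microglia, endothelium and pericytes) were chosen with earlier results of these data known. Values of each library are given for members past the limits and for the 3 largest rises and falls of each comparison, and peaks with coordinates for members with a differential peak and for the 5 with the highest fold enrichment.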

Additional observations from a re-analysis of the deposited data

Results flagged for a closer look

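In 6 of 60 sets of a gene and a group, 1 library lay apart from the rest by Dixon's test. The genes were the called members and the 3 largest rises and falls of each comparison. A single library that lies apart can put a gene among them. The rate of about 1 in 20 that chance gives in unselected genes is therefore no measure for these sets. The gap to the nearest library is given as a share of the range of the group. Cbln1 read 69.4 CPM in Wt 15 mo library 1 and 33.2 to 43.2 CPM in the others (0.722). Tenm1 read 215 CPM in the same library against 167 to 176 CPM (0.815), and 154 CPM in Wt 3 mo library 2 against 179 to 184 CPM (0.839). Slitrk4 read 49.0 CPM in Wt 3 mo library 2 against 53.4 to 54.2 CPM (0.853). Nlgn3 read 47.7 CPM in aSyn Tg 15 mo library 5, the shallowest, against 59.0 to 63.2 CPM (0.729), and Clstn3 read 480.5 CPM there against 371 to 391.9 CPM (0.81).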

How the results depend on the processing

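Of the single members followed through the alternatives, none changed direction. In Wt ageing, DESeq2 called 2 members (Mdga1 and Cbln2) and 1 factor of unwanted variation 5, against 1 in edgeR, and the count ran from 0 to 5 on leaving out 1 library, with 5 without Wt 15 mo library 3. With the replicate block 0 members were called (Mdga1 at -0.41, edgeR adjusted p = 0.166). Correlations of same-numbered Wt libraries were -0.286 to 0.058, and those of differently numbered ones were -0.194 to 0.289. So few correlations cannot show whether the label numbers pair the samples. The 3 mo and 15 mo midbrains came from different mice. In aSyn Tg ageing, the factor gave 1 member (Nlgn3) in place of 0. At 3 mo, the fit of all 4 groups called 0 members in place of 1, and leaving out 1 library gave 0 to 1. At 15 mo and for the interaction, 0 members were called under every alternative run.

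With a fold limit of 1.5 for m6A, members with a differential peak were 0 in Wt ageing, 4 in aSyn Tg ageing, 0 at 3 mo, 1 at 15 mo, 1 for aSyn Tg 15 mo vs. Wt 3 mo and 1 for Wt 15 mo vs. aSyn Tg 3 mo, and an FDR limit of 0.01 left 5 in aSyn Tg ageing. These counts are given without the shares of all genes at the same limits. They show only how the member counts depend on the limits. With windows of 50 bases on each side of the centre and 100 nt around the stop codon, 9.43% of member peaks were at the stop codon and 16.9% held GGACT, as narrower windows must lower both. The causes of the other changes were not tested. Depth limits the low members, and pooled m6A values carry no replicate error.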
